A study of Mus musculus with 4 samples.

Results

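Calcium release and uptake in striated muscle is run by paralogous genes, one copy used mainly in heart and the other mainly in skeletal muscle, and 10 such genes were followed on 4 arrays. They were Ryr2 and Ryr1, Atp2a2 and Atp2a1, Pln and Sln, Casq2 and Casq1, and Cacna1c and Cacna1s. All probe sets whose annotated symbol was exactly one of these names were taken, which gave 21 probe sets of 34945 with a single symbol and 10 genes of 18193. Each gene was read on its brightest probe set, by mean log2 over the 4 arrays. Total RNA of hearts of adult C57BL/6J mice was measured on Affymetrix mouse arrays in 2 groups of 2. Mice of the Rhau KO group were CAAG-ERT2-Cre;Rhau F/F, and their genotype in the Control group was Rhau F/F. Both groups carried the floxed Rhau alleles, had 5 doses of tamoxifen at 2 months of age and were studied 2 months later, and only the Rhau KO group carried the tamoxifen-inducible Cre, whose cell type is not named in the labels. The comparison addresses what loss of RHAU, an RNA helicase encoded by Dhx36, does to transcripts of the adult heart.

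In heart and skeletal muscle, a voltage-gated calcium channel of the surface membrane opens a release channel, the ryanodine receptor, in the sarcoplasmic reticulum, the calcium store of the muscle cell. Calcium is then pumped back by a calcium ATPase (SERCA), which the small membrane proteins phospholamban and sarcolipin inhibit, and is held in the store by calsequestrin. In heart, calcium that enters through the surface channel opens the release channel, whereas in skeletal muscle the 2 channels are coupled mechanically.

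Dhx36, the deleted gene, ran against the labels. Its 3 probe sets read 568, 627 and 327 in Rhau KO replicate 1 and 537, 537 and 276 in Rhau KO replicate 2, against 327, 156 and 253 in Control replicate 1 and 194, 172 and 149 in Control replicate 2. Whether these probe sets lie in the floxed part of the gene is not known here. Groups are named by array label throughout, and paired values are those of replicate 1 and then replicate 2. Control replicate 1 was unlike the rest, with a Pearson r of log2 intensities of 0.872 to 0.873 to the other 3 arrays, which had 0.923 to 0.926 among themselves (a description across features that are not independent). The summed intensity of 20 ventricular cardiomyocyte markers was 674255 and 686747 in the Rhau KO-labelled arrays, against 311722 and 680426 in the Control-labelled arrays, and 5 of the 20 read under 100 in Control replicate 1. That of 16 markers of fast skeletal muscle was 94600 and 95637 in the Rhau KO-labelled arrays, against 649063 and 97941 in the Control-labelled arrays. In the 3 arrays other than Control replicate 1, 8 or 9 of these 16 read under 100, and none did in Control replicate 1. The brightest 2, Eno3 and Ckm, were bright on every array. They read 25785 to 37400 and 29873 to 31305 on those 3 arrays, against 48488 and 39279 in Control replicate 1. There, 13 of the 16 were over 2-fold higher than the mean of the other 3 arrays and 0 over 2-fold lower. The sum of 8 slow-fibre markers, several of them shared with heart, was 116494 and 133230 in the Rhau KO-labelled arrays, against 123902 and 145947 in the Control-labelled arrays. In Control replicate 1, 11 of the 20 ventricular markers were over 2-fold lower than the mean of the other 3 arrays and 0 over 2-fold higher. Tnnt2 read 248 and Mybpc3 53.2 there, while the brightest, Myl3 and Fabp3, read 37087 and 23697. Some ventricular markers, such as Myoz2, are on the slow-fibre list too, so the ventricular sum cannot be read as heart muscle alone. By these lists Control replicate 1 held bright fast skeletal markers and only part of the ventricular ones, against its tissue label of hearts. Each group result below is given with and without it. Intensities under 100 were read as dim, a class that held 51.7% to 54.0% of probe sets on an array. In bulk RNA, fewer cells of a type and less RNA per cell cannot be told apart.

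The ryanodine receptors split the arrays in opposite directions. Ryr2, the release channel of heart, read 19485 and 17364 in the Rhau KO-labelled arrays, against 18.1 and 11649 in the Control-labelled arrays. Its dimmer probe set read 228 and 189 in the Rhau KO-labelled arrays, against 27.4 and 132 in the Control-labelled arrays. On both probe sets Control replicate 1 was lowest and dim, Control replicate 2 lay below both Rhau KO-labelled arrays, and the groups did not overlap. Ryr1, the release channel of skeletal muscle, ran the other way, at 17.7 and 47.8 in the Rhau KO-labelled arrays, against 6166 and 19.5 in the Control-labelled arrays. Its other probe set read 7.33 and 2.12 in the Rhau KO-labelled arrays, against 31986 and 37.7 in the Control-labelled arrays. Both Ryr1 probe sets were thus dim on 3 arrays and bright on Control replicate 1. With readings under 100 counted as 100, Control replicate 1 lay 61.7-fold and 320-fold above the mean of the other 3 arrays on the 2 Ryr1 probe sets, and the other 3 lay 158-fold above Control replicate 1 on the brighter Ryr2 probe set and 1.79-fold on the dimmer one.

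The pumps did not split in the same way. Atp2a1, the SERCA1 pump of fast skeletal fibres, read 50.2 and 33.4 in the Rhau KO-labelled arrays, against 33160 and 23.4 in the Control-labelled arrays. Atp2a2, the SERCA2 pump of heart, which slow skeletal fibres also use, was bright on every array, at 43459 and 45311 in the Rhau KO-labelled arrays, against 35567 and 48326 in the Control-labelled arrays. Its brightest probe set was therefore 1.28-fold lower in Control replicate 1 than in the mean of the other 3. Atp2a2 was within 2-fold of the other arrays there, unlike the other 4 heart genes, and its groups overlapped.

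The size of the Atp2a2 difference depended on the probe set. All 6 probe sets were lowest in Control replicate 1, and the other 3 arrays lay above it by 1.28-fold and 1.78-fold on the 2 brightest, by 2.79-fold on the third, and by 4.46-fold, 4.19-fold and 2.65-fold on the 3 dimmest. Where the gap was widest, Atp2a2 read 4007 and 2940 in the Rhau KO-labelled arrays, against 803 and 3904 in the Control-labelled arrays. The 2 probe sets with the smallest gap read 22948 or more on every array, while the highest intensity on any array was 57955 to 60981. Whether the scale is compressed at such readings was not tested, and no source used here places the probes in the transcript.

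Pln and Sln encode phospholamban and sarcolipin, 2 short inhibitors of SERCA. They are no plain heart and skeletal pair, since in mouse Sln is known as a gene of the atria as well as of some skeletal muscles. Pln read 46928 and 48870 in the Rhau KO-labelled arrays, against 175 and 45336 in the Control-labelled arrays. The other 2 probe sets of Pln had 40155 to 47766 on the 3 bright arrays and 195 and 111 in Control replicate 1, so all 3 split the arrays alike, with the 3 bright arrays 207-fold to 420-fold above it. Sln read 8.85 and 40.9 in the Rhau KO-labelled arrays, against 2656 and 6.85 in the Control-labelled arrays. The second Sln probe set was dim on all 4 arrays, at 9.10 to 31.4, so the high reading of Sln rested on 1 of 2 probe sets. Myl7, the atrial light chain, a defining marker of the atria, was dim as well, at 35.2 and 10.04 in the Rhau KO-labelled arrays, against 24.4 and 5.35 in the Control-labelled arrays. Nppa, a natriuretic peptide gene of the atrial list that is also induced in stressed ventricles, read 12550 and 30369 in the Rhau KO-labelled arrays, against 24.8 and 33614 in the Control-labelled arrays. Over the 9 measured atrial markers, the summed intensity was 17414 and 36679 in the Rhau KO-labelled arrays, against 5463 and 38440 in the Control-labelled arrays. Nppa carried that difference, and the other 8 summed to 4865 and 6310 in the Rhau KO-labelled arrays, against 5438 and 4826 in the Control-labelled arrays. In Control replicate 1, 3 of the 9 were over 2-fold higher than the mean of the other 3 arrays (Myl4, Bmp10 and Stard10, of which Bmp10 was dim on all 4) and 3 were over 2-fold lower (Nppa, Kcna5 and Tbx5).

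The calsequestrins bind calcium inside the store. Casq2, the cardiac form, which slow skeletal fibres also make, read 19383 and 17913 in the Rhau KO-labelled arrays, against 2318 and 16386 in the Control-labelled arrays. The 3 other arrays lay 7.70-fold above Control replicate 1, where Casq2 stayed far from dim, in contrast to Ryr2. Casq1, the skeletal form, read 280 and 145 in the Rhau KO-labelled arrays, against 31704 and 239 in the Control-labelled arrays. Casq1 was above 100 on every array and 149-fold higher in Control replicate 1 than in the mean of the other 3. Each calsequestrin had 1 probe set, and that of Casq2 carries the suffix of a set that can read related transcripts.

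The surface channels also split the arrays in opposite directions. Cacna1c, the pore of the cardiac L-type channel, read 3047 and 2884 in the Rhau KO-labelled arrays, against 47.1 and 2750 in the Control-labelled arrays. Its second probe set read 812 and 781 in the Rhau KO-labelled arrays, against 24.0 and 850 in the Control-labelled arrays. Control replicate 1 was dim on both, but Control replicate 2 lay below both Rhau KO-labelled arrays on the first and above both on the second. Cacna1s, the pore of the skeletal channel and the voltage sensor for Ryr1, read 112 and 109 in the Rhau KO-labelled arrays, against 5495 and 165 in the Control-labelled arrays. On the brightest probe sets, Cacna1s was the one gene of the skeletal set whose groups did not overlap, with both Rhau KO-labelled arrays below both Control-labelled ones. The second Ryr1 probe set did not overlap either, but 3 of its 4 readings were dim.

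**Figure D1:**
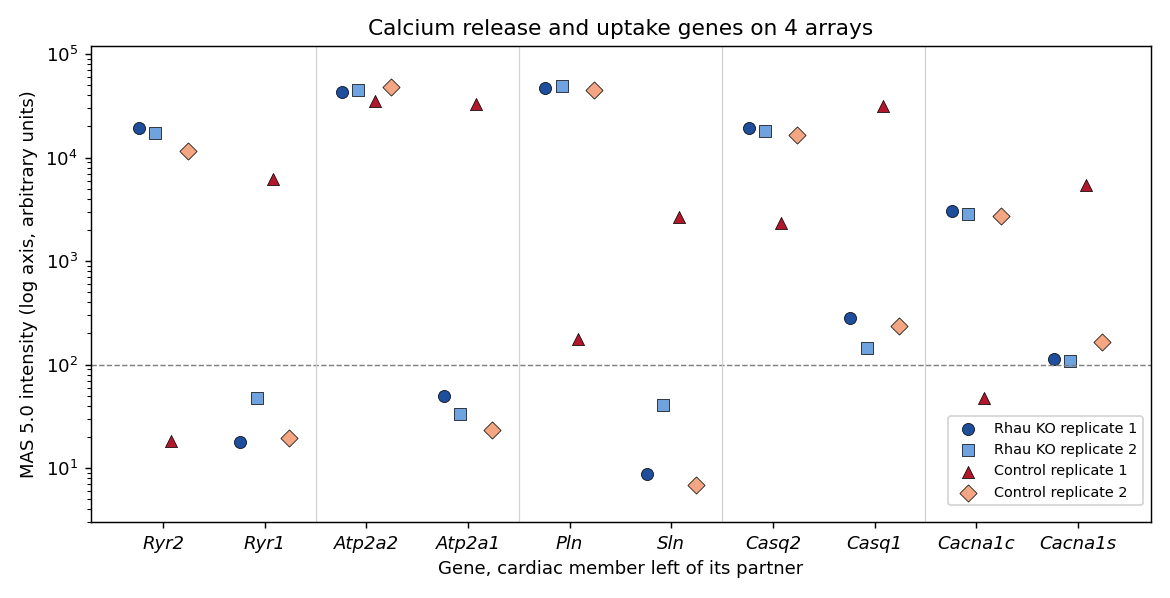
MAS 5.0 intensity in arbitrary units, on a log axis, for the 10 genes, on the brightest probe set of each, with 1 symbol per array and a dashed line at 100. Control replicate 1 sits at 18.1 for Ryr2 and 175 for Pln, where the other 3 arrays read 11649 or more, and at 33160 for Atp2a1, where they read 50.2 or less, while all 4 arrays lie between 35567 and 48326 for Atp2a2.

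Control replicate 1 was over 2-fold lower than the mean log2 intensity of the other 3 arrays for 4 of the 5 heart genes, where 18.0% of all genes were, and over 10-fold lower for 3 of them, against 1.72% of all genes. All 5 genes of the skeletal set, Sln included, were over 10-fold higher in Control replicate 1, against 1.23% of all genes over 10-fold and 13.0% over 2-fold higher. The median difference was -5.94 on the log2 scale over the heart genes and 7.62 over the skeletal set, beside -0.09 over all genes. Of 14 probe sets of the heart genes 12 were over 2-fold lower, the exceptions being the 2 brightest of Atp2a2, and of 7 probe sets of the skeletal set 6 were over 2-fold higher, the exception being the dim one of Sln. These are differences of a single array, so they carry no test, and the genes were chosen with this split known. Several of the probe sets belong to the same gene, and the share over all probe sets was not computed.

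**Figure D2:**
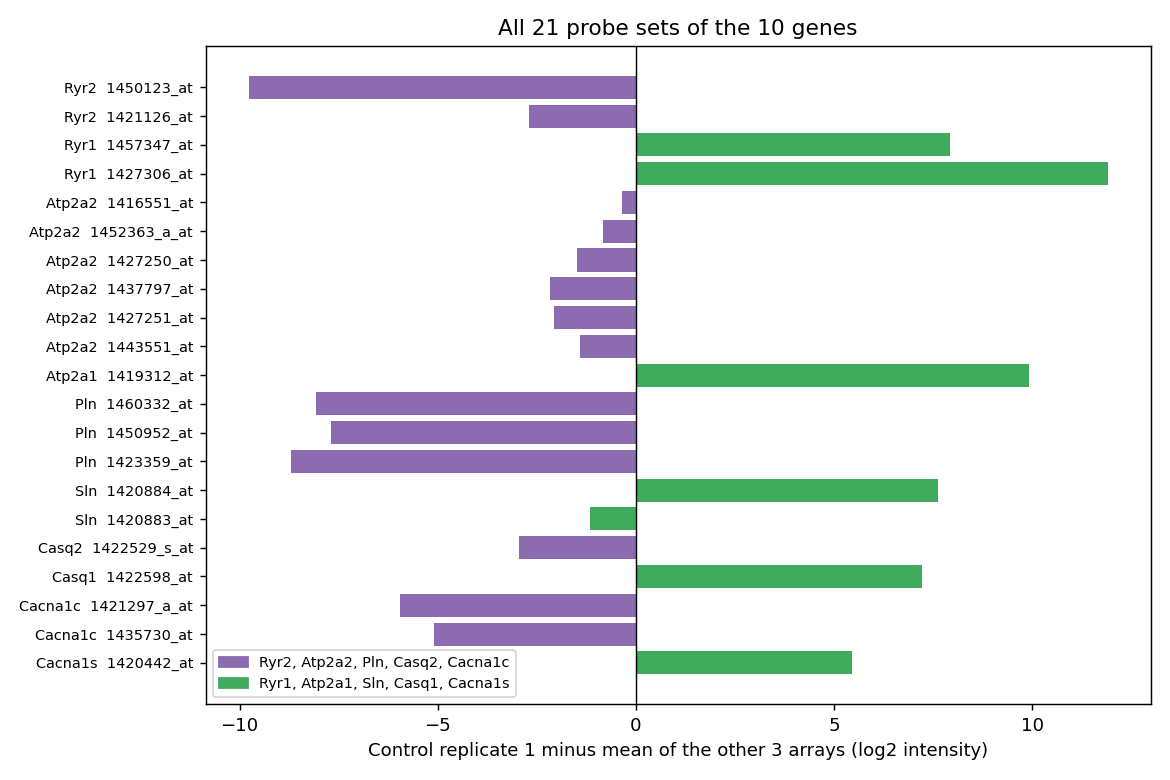
Control replicate 1 minus the mean of the other 3 arrays (log2 intensity, horizontal axis) for each of the 21 probe sets, with heart genes in purple, the skeletal set in green and dim readings as deposited. The bars run from -9.77 for the brighter Ryr2 probe set to 11.90 for the second Ryr1 probe set, and those of Atp2a2 span -2.16 to -0.36.

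For each pair, the log2 intensity of the heart gene minus that of its partner was taken on each array as a paralog index. Probe sets differ in how strongly they bind, so only the change of an index between arrays can be read, not its level. The index of Ryr2 minus Ryr1 was 10.10 and 8.50 in the Rhau KO-labelled arrays, against -8.41 and 9.22 in the Control-labelled arrays. That of Atp2a2 minus Atp2a1 was 9.76 and 10.40 in the Rhau KO-labelled arrays, against 0.10 and 11.01 in the Control-labelled arrays. Both pairs had Control replicate 2 inside or close to the range of the Rhau KO-labelled arrays and Control replicate 1 far below it. The index of Casq2 minus Casq1 was 6.11 and 6.95 in the Rhau KO-labelled arrays, against -3.77 and 6.10 in the Control-labelled arrays. That of Cacna1c minus Cacna1s was 4.76 and 4.72 in the Rhau KO-labelled arrays, against -6.87 and 4.06 in the Control-labelled arrays. That of Pln minus Sln was 12.37 and 10.22 in the Rhau KO-labelled arrays, against -3.92 and 12.69 in the Control-labelled arrays. Control replicate 1 was below the nearest other array by 9.66 log2 units (Atp2a2 minus Atp2a1) to 16.92 (Ryr2 minus Ryr1), while the other 3 arrays spanned 0.70 (Cacna1c minus Cacna1s) to 2.47 (Pln minus Sln). These gaps include dim readings, and with readings under 100 counted as 100 they were 8.66 for Atp2a2 minus Atp2a1, 9.84 for Cacna1c minus Cacna1s, 9.88 for Casq2 minus Casq1, 12.75 for Pln minus Sln and 12.81 for Ryr2 minus Ryr1.

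By label, the 5 indices were higher under Rhau KO than under Control by 4.53 (Atp2a2 minus Atp2a1) to 8.90 (Ryr2 minus Ryr1) log2 units. An exact permutation test of 2 arrays against 2 (two-sided) cannot give a p under 0.333, and it gave p = 0.333 for Casq2 minus Casq1 and Cacna1c minus Cacna1s, 0.667 for Ryr2 minus Ryr1 and 1 for the other 2 pairs, before any adjustment over the 5. Without Control replicate 1, the difference was 0.08 for Ryr2 minus Ryr1, 0.43 for Casq2 minus Casq1 and 0.68 for Cacna1c minus Cacna1s, and it was -0.93 for Atp2a2 minus Atp2a1 and -1.40 for Pln minus Sln. Ryr1, Atp2a1 and Sln were dim on those 3 arrays, and with readings under 100 counted as 100 the difference was 0.66 for Ryr2 minus Ryr1, -0.12 for Atp2a2 minus Atp2a1 and 0.08 for Pln minus Sln. The change of direction for Pln minus Sln was thus lost with that floor.

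**Figure D3:**
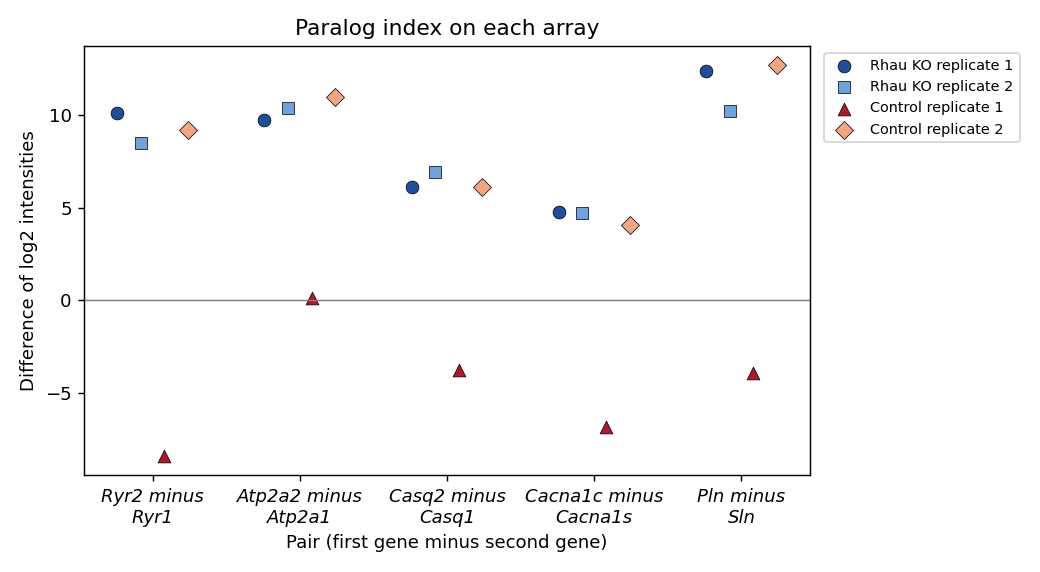
Difference of log2 intensities between the genes of each pair (vertical axis, first gene minus second), with 1 symbol per array and dim readings as deposited. Control replicate 1 lies between -8.41 and 0.10, and the other 3 arrays between 4.06 and 12.69.

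Between the groups as labelled, the 5 heart genes had a higher mean log2 intensity in the Rhau KO-labelled arrays and the 5 of the skeletal set a lower one, none past the test, and Atp2a2 turned to -0.0012 with median centring of the arrays. The log2 difference, Rhau KO minus Control, was 5.32 (standard error 3.104) for Ryr2, 4.09 (2.67) for Pln, 3.04 (1.96) for Cacna1c, 1.60 (0.95) for Casq2 and 0.10 (0.24) for Atp2a2. It was -4.43 (3.49) for Atp2a1, -3.77 (2.37) for Casq1, -3.57 (2.82) for Ryr1, -3.10 (1.70) for Cacna1s and -2.83 (2.98) for Sln. Both Rhau KO-labelled arrays lay above both Control-labelled ones for 4 of the 5 heart genes, where 21.7% of all genes did, and below both for 1 of the 5 of the skeletal set, where 14.6% did. The adjusted p over all genes was 0.873 to 0.939 (limma, Benjamini-Hochberg). Limma called 0 of the 10 at an adjusted p under 0.05, where it called 0% of all genes, and 0 of the 10 at an unadjusted p under 0.05, where it called 4.31% of all genes. The methods' t-test is the two-tailed Student test that the authors name for their comparisons in general, run here on log2 intensity. They name no test for the arrays. It also called 0 of the 10 at either threshold, where it called 0 of all 18193 genes at the adjusted and 941 at the unadjusted one. No source used here ties the replicates to separate mice, and p-values then reflect only how far these arrays spread, which may be technical.

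Each of these differences rested on which Control array was kept. Without Control replicate 2, so that Control replicate 1 was the lone Control, all 10 genes passed an adjusted p under 0.05, where 22.5% of all genes did, with Ryr2 at 9.99, Pln at 8.10, Atp2a1 at -9.66 and Ryr1 at -7.73 on the log2 scale. Atp2a2 passed at 0.32 (adjusted p = 0.0469 from limma), and 9 of the 10 passed a fold of 2 with an unadjusted p under 0.05, where 18.0% of all genes did. In either fit without a Control array, the lone Control that is left is assumed to vary like the Rhau KO-labelled arrays. The standard errors and p-values of these fits therefore hold no spread between Control arrays. Without Control replicate 1, 0 of the 10 passed an adjusted p under 0.05, where 0.819% of all genes did, and 1 of the 10, Ryr2, passed an unadjusted p under 0.05, where 13.3% did. The fitted standard errors of the brighter genes then fell to between 0.09 and 0.11.

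**Figure D4:**
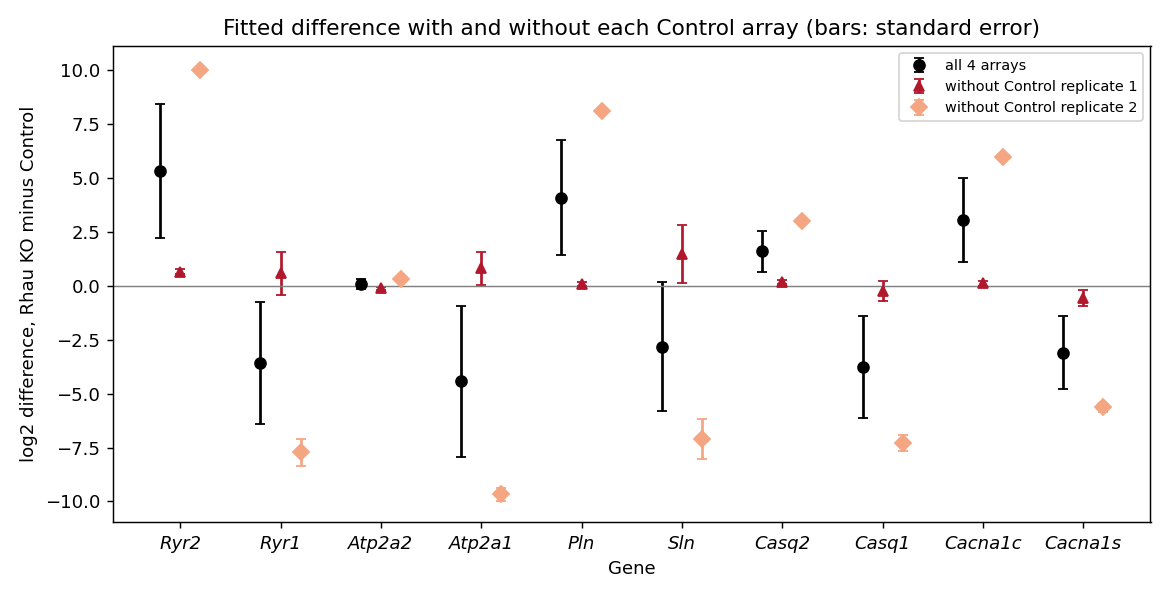
Log2 difference, Rhau KO minus Control, of the 10 genes (vertical axis), with standard errors as bars, from all 4 arrays and without either Control array. Without Control replicate 1 the heart genes lie between -0.12 and 0.66, and without Control replicate 2 between 0.32 and 9.99.

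Among the 3 arrays other than Control replicate 1, the heart genes were close to each other, with Ryr2 as the exception. Without Control replicate 1, Ryr2 differed by 0.66, a level 1.58-fold higher in the Rhau KO-labelled arrays than in Control replicate 2. With Control replicate 2 as the lone Control, the spread between Control arrays is not known. The dimmer Ryr2 probe set gave 1.57-fold in the same direction. The other heart genes gave 0.19 for Casq2, 0.11 for Cacna1c, 0.08 for Pln and -0.12 for Atp2a2. The 3 probe sets of Pln gave 0.964-fold to 1.06-fold, the 6 of Atp2a2 0.879-fold to 1.12-fold and the 2 of Cacna1c 0.938-fold and 1.08-fold, Rhau KO over Control replicate 2, so the direction differed between probe sets of each of these genes. Over all 21 probe sets, Control replicate 2 lay below both Rhau KO-labelled arrays on 9, between them on 6 and above both on 6. Several of the 21 belong to the same gene and some were dim. The share over all probe sets was not computed, so no direction is read from these counts. Control replicate 2 also read high for heat shock genes, with a summed intensity of 136020 over 6 genes (38307 and 34313 in the Rhau KO-labelled arrays, 18479 in Control replicate 1), and the part of this in the Ryr2 difference was not tested.

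The skeletal genes that were bright enough to read on these 3 arrays did not pass the test. Without Control replicate 1, Cacna1s was at -0.57 (standard error 0.38) and Casq1 at -0.24 (0.45), with adjusted p of 0.603 and 0.871 from limma. Ryr1, Atp2a1 and Sln turned to 0.58, 0.81 and 1.47 with standard errors of 0.99, 0.77 and 1.34, on readings of 6.85 to 50.2 that were all dim. Their values on these arrays have no order that can be read.

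RefSeq promoters (GRCm38.p6) were found for 8 of the 10 genes, with 3 start sites for Cacna1c and 1 for each of the others, and the 250 bases before each start were searched on both strands for motifs of muscle and heart transcription factors. A MEF2 site, bound by a factor of both muscle types, was found for Casq2, and 2.92% of all 32851 promoters held one. A GATA motif (AGATAA, read on either strand), bound by a family that includes a heart factor, was found for Pln, where 9.99% of all promoters held one. An E-box (CANNTG, alike on both strands) was found for 7 of the 8 genes and for 66.2% of all promoters, and a CArG box for 0 of the 8 and 1.47%. A TATA box (TATAAA, forward strand only) was found for Pln (7.59% of all promoters) and an MCAT motif (CATTCC) for Cacna1s (12.6%). The MEF2 and GATA matches are shown, a choice that does not rank the motifs by their part in heart muscle. They run 5′ to 3′ in 30-base windows with the motif in capitals. The Casq2 window is at chr3:102086336-102086365 (plus strand) and the Pln window at chr10:53337491-53337520 (plus strand, motif on the minus strand).
Casq2: attgcatgatTTATTTTTAGctcgaaacaa
Pln: ctttattctcagTTATCTgttatacacatt
The motifs end 60 bases (Casq2) and 178 bases (Pln) before the annotated start. They are matches of letters only, and no measurement of binding was made here.

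Of 72 other genes of calcium handling that were listed by role, 64 were measured on a probe set with a single symbol. In Control replicate 1, 26 of the 64 were over 2-fold higher than the mean of the other 3 arrays, 13 were over 2-fold lower and 25 were within 2-fold, where 13.0% and 18.0% of all genes were higher and lower. Their median difference was 0.33 on the log2 scale, beside -0.09 over all genes. These counts and those by role include dim readings, and 9 of the 64 genes were under 100 on every array. With readings under 100 counted as 100, some dim genes came within 2-fold. Cacna1h went from -2.31 to -0.60 and Ryr3 from 1.09 to -0.05 on the log2 scale. The junction and coupling proteins had 7 of 13 higher and 1 lower, the surface channel subunits 6 of 14 higher and 5 lower, and the pumps and their regulators 6 of 13 higher and 3 lower.

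The 4 furthest above, on the readings as deposited, were Pvalb, Stac3, Jsrp1 and Slc8a3. Pvalb, a calcium buffer of fast fibres that is also on the fast-fibre marker list, read 12.7 and 45.3 in the Rhau KO-labelled arrays, against 43235 and 70.6 in the Control-labelled arrays. Stac3, which the skeletal surface channel needs to reach the membrane and couple to release, read 51.1 and 29.0 in the Rhau KO-labelled arrays, against 12067 and 23.7 in the Control-labelled arrays. Pvalb and Stac3 were dim on the 3 arrays other than Control replicate 1. Jsrp1, a junctional protein of skeletal muscle, read 19.6 and 74.6 in the Rhau KO-labelled arrays, against 9442 and 38.9 in the Control-labelled arrays. Slc8a3, a sodium and calcium exchanger, read 29.1 and 3.47 in the Rhau KO-labelled arrays, against 3177 and 54.8 in the Control-labelled arrays. All 4 were dim on the 3 arrays where Ryr1 and Atp2a1 were dim. The 4 were picked for their large difference between Control replicate 1 and those arrays, so the pick favoured this pattern. With readings under 100 counted as 100, Pvalb, Stac3 and Jsrp1 were still the top 3 (differences of 8.76, 6.91 and 6.56 on the log2 scale), while Slc8a3 at 4.99 lay below Cacng1, a subunit of the skeletal surface channel, at 5.64, Bin1, which shapes the transverse tubules, at 5.63 and Sypl2, a junctional membrane protein, at 5.33.

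The 4 furthest below, among genes that read 1000 or more on some array, were partners of the heart machinery or shared ones. Cacnb2, the main beta subunit of the cardiac channel, read 2585 and 1917 in the Rhau KO-labelled arrays, against 28.6 and 1464 in the Control-labelled arrays. Rrad, a small GTPase that restrains that channel, read 3647 and 3153 in the Rhau KO-labelled arrays, against 189 and 1899 in the Control-labelled arrays. Trdn, triadin, which anchors calsequestrin to the release channel, read 13048 and 12941 in the Rhau KO-labelled arrays, against 1602 and 10493 in the Control-labelled arrays. In Control replicate 1 all 3 were lowest, and Cacnb2 alone was dim. S100a1, a calcium sensor that binds the pump and the release channel, read 19508 and 20664 in the Rhau KO-labelled arrays, against 3494 and 18725 in the Control-labelled arrays. Control replicate 2 lay below both Rhau KO-labelled arrays for each of these 4. Both Rhau KO-labelled arrays lay above both Control-labelled ones for 21.7% of all genes. The low place of Control replicate 1 was set by how the 4 were picked. Hrc and Srl, 2 store proteins named here after their values were seen, did not follow the split. Hrc read 17891 and 16894 in the Rhau KO-labelled arrays, against 16007 and 15756 in the Control-labelled arrays, and Srl read 19960 and 18449 in the Rhau KO-labelled arrays, against 24111 and 22764 in the Control-labelled arrays.

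**Figure D5:**
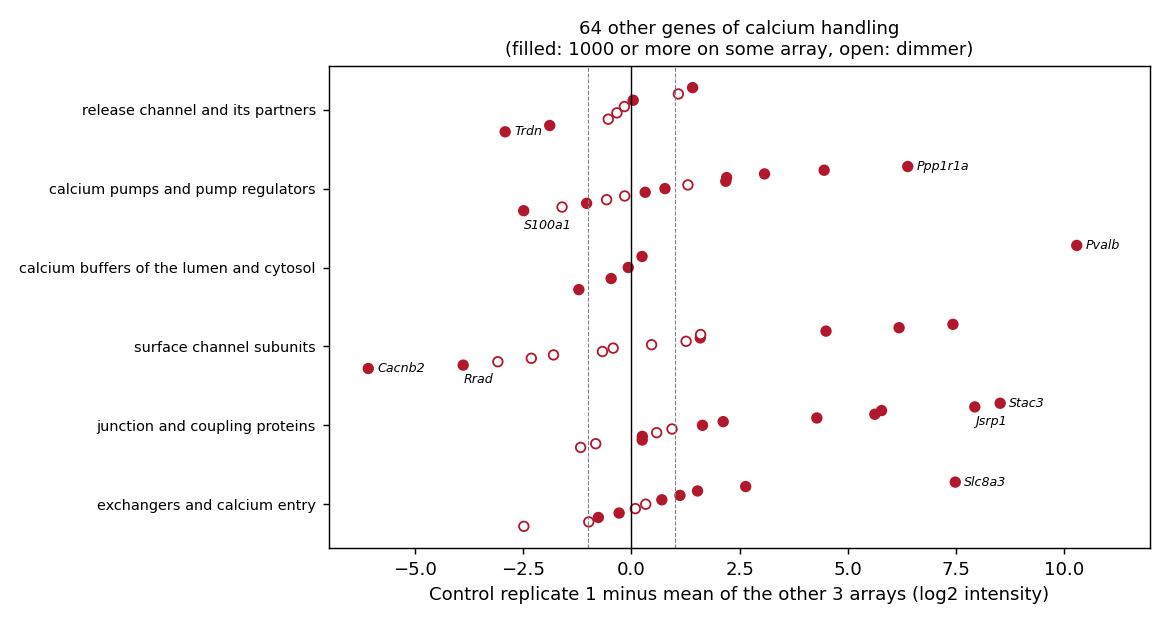
Control replicate 1 minus the mean of the other 3 arrays (log2 intensity, horizontal axis) for 64 other genes of calcium handling by role, 1 point per gene, with dashed lines at a 2-fold difference. Dim readings are as deposited. Pvalb lies furthest right at 10.29 and Cacnb2 furthest left at -6.08.

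Between the groups as labelled, 3 of the 64 genes passed a fold of 2 with an unadjusted p under 0.05 (limma), where 3.29% of all genes did. At an adjusted p under 0.05, 0 of the 64 passed by limma or the methods' t-test, as did 0 of all 18193 genes. The median log2 difference of the 64 was -0.16, beside 0.09 over all genes. Cacna1g and Cacna1h, pores of T-type channels, read 164 and 92.6 (Cacna1g) and 152 and 227 (Cacna1h) in the Rhau KO-labelled arrays, against 19.1 and 19.3 (Cacna1g) and 25.3 and 57.2 (Cacna1h) in the Control-labelled arrays (log2 differences 2.68 and 2.29, standard errors 0.55 and 0.59, adjusted p = 0.873 each). Ppp1r1a, an inhibitor of protein phosphatase 1, read 13.1 and 14.6 in the Rhau KO-labelled arrays, against 1962 and 67.3 in the Control-labelled arrays. The Control readings of the T-type genes were all dim, and with readings under 100 counted as 100 none of the 55 genes that remained passed. Without Control replicate 1, 6 of the 64 passed both thresholds, 4 higher and 2 lower, where 4.51% of all genes did, with 0 at an adjusted p under 0.05 and a median of 0.02 beside 0.03 over all genes. Rrad and Cacnb2 were then at 0.84 (adjusted p = 0.0721) and 0.60 (adjusted p = 0.277).

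The genes with the most similar pattern to each release channel were found by the Euclidean distance of log2 intensities centred on their mean over the 4 arrays, among 18192 other genes. On the readings as deposited, the nearest to Ryr2 were Dsp (distance 0.68), which encodes the desmosomal protein desmoplakin, Mybpc3 (0.84), cardiac myosin-binding protein C, and Kcnip2 (1.09), a potassium channel subunit of heart. Those nearest to Ryr1 were Jsrp1 (0.60), Mylk2 (0.88), the myosin light chain kinase of skeletal muscle, and Shisa2 (0.94). These distances include differences between dim readings, on Control replicate 1 for Ryr2 and on the other 3 arrays for Ryr1. With readings under 100 counted as 100, the nearest to Ryr2 were Mylk3, Cdh2 and Tnnt2, and the nearest to Ryr1 were Myhas, Mylk2 and Myf6. Mylk2 was the one gene named under both settings, and no order among such genes is read from these distances. Mylk2 read 13.7 and 48.3 in the Rhau KO-labelled arrays, against 6371 and 9.47 in the Control-labelled arrays.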

How the data were processed

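Heart RNA of 2 groups, 2 arrays each, was measured on Affymetrix arrays. The intensity values are those the authors deposited, which they computed with MAS 5.0 in GeneSpring, with a common trimmed mean for the arrays. No detection call is used here. Of 45101 probe sets, 34958 carried 1 symbol, 932 several and 9211 none. The 64 controls among them were left out, which left 34945 with 1 symbol. Symbols came from the platform annotation, and the brightest probe set with 1 symbol represented each of 18193 genes, with no filter on dim genes. Differences of log2 intensity (Rhau KO minus Control) were fitted by limma 3.58.1 under R 4.3.3 (lmFit, then eBayes with a trend), with Benjamini-Hochberg adjustment over all genes. The code was tested on simulated data. The number of arrays limits the precision. Tables and plots used Python 3.11.15, numpy 2.4.6, pandas 2.3.3 and matplotlib 3.10.9.

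The 10 genes, the lists and the tests were chosen with earlier results of these data known. The rule for named genes took the 10 genes on every probe set, list members that passed both the fold of 2 and an unadjusted p under 0.05, the 4 highest and 4 lowest list members in Control replicate 1, the 3 nearest genes to Ryr2 and Ryr1, and the brightest 2 markers of a list, and other atrial markers, Hrc, Srl and the genes that a floor of 100 brought in (an alternative chosen after seeing the data) were named besides. The alternatives were no trend, quantile normalization, median centring, a pseudocount of 32, a floor of 100, a fit on brighter genes, averaged probe sets, single probe sets, the replicate block, the t-test and leaving out each array. Over 6 genes each, markers of smooth muscle, fibroblasts, endothelium and macrophages summed to 17156, 41719, 41070 and 11602 in Rhau KO replicate 1, 10764, 39528, 42679 and 12153 in Rhau KO replicate 2, 7555, 47710, 23104 and 5624 in Control replicate 1 and 6179, 49737, 41201 and 11883 in Control replicate 2.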

Additional observations from a re-analysis of the deposited data

How the results depend on the processing

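Relative to all 4 arrays, Atp2a2 turned to -0.0012 with median centring, and no other member changed direction with the trend, quantile, pseudocount, floor, brighter-gene, probe-set or block alternatives. Over the settings that left out 1 array, the log2 difference ranged from -7.73 to 0.58 for Ryr1, from -9.66 to 0.81 for Atp2a1, from -7.12 to 1.47 for Sln and from -0.12 to 0.32 for Atp2a2, and the indices from -0.93 to 9.98 (Atp2a2 minus Atp2a1) and from -1.40 to 15.22 (Pln minus Sln), the upper or lower end in each case being set by which Control array was left out. Genes past an adjusted p under 0.05 numbered 0 with all arrays, 1 of 11840 with readings under 100 counted as 100, and 0 to 4097 with 1 array left out. Genes past a fold of 2 and an unadjusted p under 0.05 numbered 599, and 338 with a pseudocount of 32, 200 with that floor, 167 of the 9096 brighter genes, 351 by the methods' t-test and 285 to 3282 with 1 array left out. Of the 64 calcium handling genes 3 passed, and 0 with the floor, 0 among the brighter genes, 1 by the t-test, 9 with the replicate block (4 higher and 5 lower) and 1 to 34 with 1 array left out. Over all 18193 genes, 634 passed a fold of 2 and an unadjusted p under 0.05 with the replicate block (limma). The deviations of the replicate 1 arrays from their group means had r = 0.0060 over genes. Control replicate 1 was unlike the other arrays, so this r cannot show whether replicate numbers pair the arrays. With the replicate block the 10 members had an adjusted p of 0.969 to 0.989 from limma. Casq1 alone of the 10 then had an unadjusted p under 0.05, where 694 of all 18193 genes did. Ryr1, Atp2a1 and Sln were too dim to be among those brighter genes and have no value there. The cause of these changes was not tested.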
